A study of Mus musculus with 6 samples.

Results

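Thrombospondins, tenascins, periostin and the SPARC proteins were examined in cultured muscle myospheres as 10 genes: Thbs1, Thbs2, Thbs3, Thbs4, Comp, Tnc, Tnxb, Postn, Sparc and Sparcl1. They were found by annotation, as every probe set assigned to 1 of these genes and to no other, which gave 10 of 18194 measured genes and 16 of 35067 single-gene probe sets. The family was chosen by name with its signals on these arrays already known, so the levels below are a description without a test. Hind-leg muscle of male Balb/c mice was the source; its cells had been enriched by FACS for the surface antigen Sca1 and grown as myospheres, clusters of cells in culture. No age or genotype is given. The cells had spent 4 days in neurocult medium with LIF, EGF, B27 and a supplement written bf6f, and were at passage 1 when RNA was taken from 2000000 cells. There was a single condition with no control culture, measured as replicates 1 to 3, each on the Affymetrix chips MOE430A and MOE430B (6 arrays). The labels give all arrays a common sample number and do not say that the replicates are separate cultures, so the spread between them may be technical.

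Matricellular proteins are secreted into the extracellular matrix but act mainly as modulators, binding collagens, proteases, growth factors and cell surface receptors rather than bearing load. Thrombospondins 1 and 2 form trimers with type 1 repeats that bind CD36 and inhibit angiogenesis, whereas thrombospondins 3 and 4 and COMP form pentamers without these repeats. Tenascin-C and periostin are produced in regenerating muscle, and SPARC binds collagen and calcium and is made by many stromal cells. In bulk RNA such as this, fewer cells of a type and less RNA per cell cannot be told apart.

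Promoter sequence from RefSeq (assembly GRCm38.p6) was held for 7 of the 10 genes, as 9 windows because Tnc and Postn have 2 starts each, and the stretches below are those of the genes with the clearest signal, Thbs2, Sparc and Tnc, together with Postn, whose downstream start carries the same motif as that of Tnc. Capitals mark matches on either strand to the TATA motif written TATATAA, to its other form TATAAA and to the box read by NF-Y, CCAAT; all sequences run 5′ to 3′ on the gene's strand, and the 250 bases before each start were searched. The Thbs2 stretch lies 101 to 200 bases before the start (chr17:14694363-14694462, minus strand), that of Sparc 1 to 100 bases before it (chr11:55420081-55420180, minus strand). Those of Tnc (chr4:64046947-64046976, minus strand) and Postn (chr3:54361067-54361096, plus strand) lie 11 to 40 bases before the downstream start.
Thbs2: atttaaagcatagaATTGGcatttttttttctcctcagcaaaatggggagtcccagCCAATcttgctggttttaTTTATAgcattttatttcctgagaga
Sparc: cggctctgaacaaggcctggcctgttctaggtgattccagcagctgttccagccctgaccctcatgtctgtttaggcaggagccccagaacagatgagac
Tnc: aaggagctcccTATATAAgcctgccaaagc
Postn: acagcccagagcTATATAAActcagctctc

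TATATAA began 29 bases before the downstream start of Tnc and 28 bases before that of Postn, where it overlaps a TATAAA match. It was present in 2 of the 9 windows of these genes and in 3.04% of all 32851 windows in the table. TATAAA was present in 4 of 9 windows (Thbs2, Postn and both of Tnc), against 12.4% of all windows. It began 126 bases before the Thbs2 start, on the opposite strand, and 26 bases before the downstream start of Postn. The Tnc match began 126 bases before the upstream start and 205 bases before the downstream start. CCAAT was present in 2 of 9 windows (Thbs2 and Thbs3), against 33.8%. The GC box GGGCGG was found in 4 of 9 windows (Thbs3, Thbs4 and both of Tnc), against 32.7%. The 2 Tnc windows overlap, so that their TATAAA match is the same site counted in both, as is their GC box. The AP-1 motif TGANTCA, which reads alike on both strands, was found in 1 of 9, that of Tnxb, against 6.75%. Searched for these 5 motifs, the Sparc window held none. A match describes letters only, and several windows can belong to the same gene.

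The deposited values are MAS5 signals, a linear summary of the probes of each probe set, scaled by the authors to a trimmed mean of 1500 to 1501 on every array. Each signal is read against a background limit of its own array, the 95th percentile of probe sets for gene families of unrelated tissues such as odorant receptors and keratin-associated proteins. This limit lay between 784 and 822 on the MOE430A arrays and between 2542 and 3237 on the MOE430B arrays, and a gene counted as above it when 1 of its probe sets exceeded it on all 3 arrays. Of 100 probe sets present on both chips, 99 read higher on MOE430B than on MOE430A (limma, adjusted p under 0.05), and the median difference was 1.86 in log2 units, or 1.19 with each array centred on its median. Probe sets differ in affinity, so multiples of the limit do not rank genes. On MOE430A the Gapdh control read 13.8 times higher at the 3' than at the 5' end and actin 10.4 times. Replicate 2 had the strongest spiked hybridisation controls, with a median of 18303 on MOE430A against 11923 and 12876 in replicates 1 and 3. The MOE430B array of replicate 1 came from another chip lot than those of replicates 2 and 3. All arrays of a chip were scanned on a day of their own, so chip and scan day cannot be told apart. The number of arrays, 3 per chip, limits the precision.

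Of the 10 genes, 6 were above the limit: Thbs1, Thbs2, Tnc, Tnxb, Postn and Sparc. Over all measured genes the share was 36.2%. Genes with more probe sets have more chances to pass, and of the 6 members with a single probe set 2 were above, against 22.1% of all such genes. Each of the 4 members with 2 or more probe sets was above, against 50.4% of all such genes. By probe set, 8 of 13 were above on MOE430A (35.6% of all single-gene probe sets of that chip) and 1 of 3 on MOE430B (13.6%). On the lowest array of their best probe set, Thbs2, Tnc and Sparc read 19.4, 27.3 and 34.4 times the limit. Postn, Thbs1 and Tnxb read 1.27, 1.06 and 1.04 times it. With the 99th percentile as limit these last 3 genes no longer passed, which left 3 of 10 members above, against 27.0% of all genes at that limit.

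**Figure D1:**
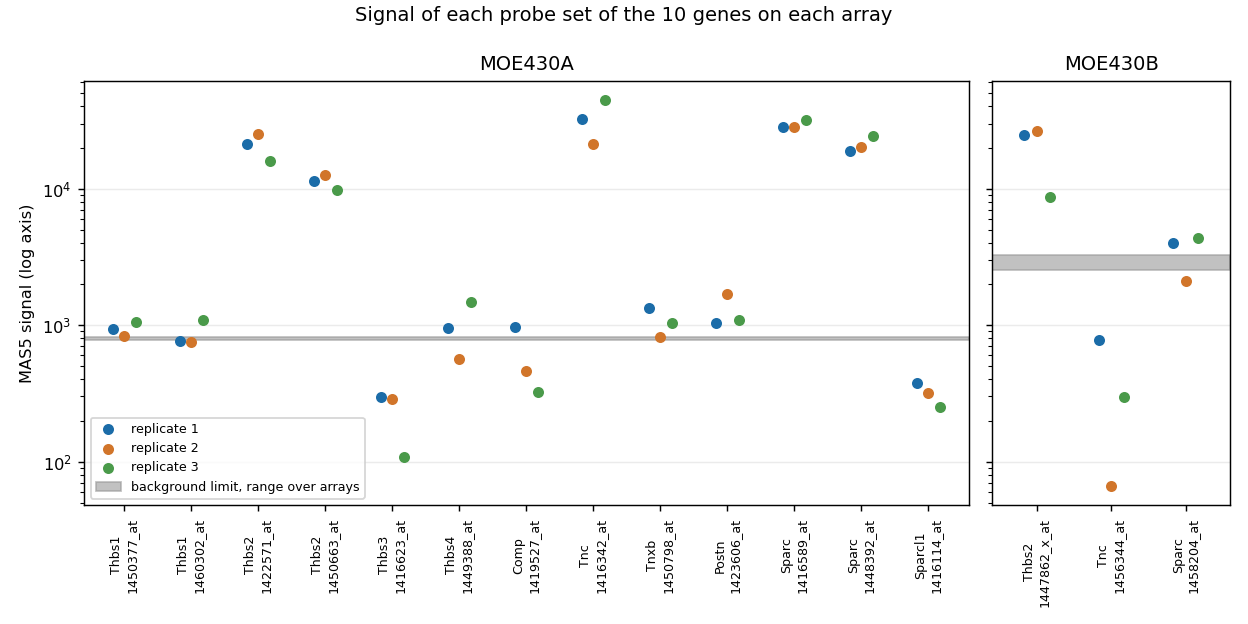
MAS5 signal (log axis) of each of the 16 probe sets on the arrays of replicates 1 to 3, with MOE430A on the left and MOE430B on the right; the grey band is the range of the background limit over the 3 arrays of the chip. Thbs2, Tnc and Sparc stand far above the MOE430A band, while Postn and the first Thbs1 set lie just above it and Thbs3 and Sparcl1 below it. Tnxb in replicate 2 lies inside the band, and the second Thbs1 set lies below it in replicates 1 and 2.

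Among the trimeric thrombospondins, Thbs2, a matrix glycoprotein that limits angiogenesis and helps clear MMP2, gave high signal by all 3 of its probe sets. Probe set 1422571_at on MOE430A read 21256 in replicate 1, 25021 in replicate 2 and 15939.9 in replicate 3, or 20739 ± 4563 (SD, n = 3). Its second MOE430A set, 1450663_at, read 11466, 12671 and 9819. On MOE430B, 1447862_x_at read 24632, 26363.5 and 8637. All 3 sets were highest in replicate 2 and lowest in replicate 3, and even the lowest value was 3.40 times the limit of its array.

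Thbs1, which activates latent TGF-beta and binds CD47 and CD36, lay at the limit by the sets annotated to it alone. Probe set 1450377_at read 936, 832 and 1045 in replicates 1 to 3 (937.8 ± 107), which is 1.14, 1.06 and 1.27 times the limits of those arrays. A second set, 1460302_at, read 767, 756 and 1093 and exceeded the limit in replicate 3 alone. Both sets were highest in replicate 3 and lowest in replicate 2. A further MOE430A probe set is annotated to Thbs1 together with another gene and was left out of these values. It read 2208 ± 154, at least 2.62 times the limit on every array, and which of the genes gave this signal cannot be told.

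Of the pentameric group none was above the limit on all 3 arrays. Thbs4, which is made in tendon and in stressed muscle and heart, read 946, 561 and 1473, above the limit in replicates 1 and 3 and at 0.716 of it in replicate 2. Comp, the cartilage oligomeric matrix protein of tendon and cartilage, read 967, 457 and 321, above the limit in replicate 1 only. Thbs3, expressed in bone and cartilage, read 295, 286 and 109, at most 0.364 of the limit. These low values varied widely between arrays, by 2.62 to 3.01 times from the lowest to the highest array, and values this low do not establish that the RNA was missing. Without replicate 2, Thbs4 would pass, at 1.16 times the limit on its lowest array.

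Tnc, a hexameric glycoprotein of developing and injured tissue, read 32489 in replicate 1, 21414.5 in replicate 2 and 44380.1 in replicate 3 by probe set 1416342_at on MOE430A (32761 ± 11485, SD, n = 3). This is 27.3 to 54.0 times the limit, so its call does not hang on the spread, but the highest array read 2.07 times the lowest. Its probe set on MOE430B, 1456344_at, did not show this signal: it read 781, 66.5 and 297, at most 0.241 of the limit of that chip. Where each probe set lies on the transcript is not given in the sources used here, and the part of the loss of 5' signal noted above in this difference was not tested. Tnxb, the large tenascin of dermis and tendon, read 1327, 815 and 1044, just above the limit in replicate 2 and 1.62 times it in replicate 1.

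Periostin (Postn), a fasciclin-domain protein that binds collagen, fibronectin and tenascin-C, read 1037.5, 1697 and 1096 (1277 ± 365). It was above the limit on every array, at 1.27, 2.16 and 1.33 times it, with replicate 2 the highest. Sparc, the collagen-binding glycoprotein also called osteonectin, read 28161, 28131 and 31968 by 1416589_at (29420 ± 2207) and 18998, 20240.0 and 24303 by 1448392_at. These 2 sets were 23.2 to 38.9 times the limit. The MOE430B set 1458204_at was near the limit of its chip, at 3967, 2089 and 4365, above it in replicates 1 and 3 only. All 3 Sparc sets were highest in replicate 3. Its homologue Sparcl1, or hevin, which is abundant in endothelium, mural cells and brain, read 375, 321 and 249, at 0.303 to 0.457 of the limit.

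Spread between replicates differed among the genes above the limit. For the 7253 single-gene probe sets above the limit on MOE430A the median SD of log2 signal over the 3 arrays was 0.19. Tnc had an SD of 0.53, larger than that of 98.2% of them, and Postn had 0.39, larger than 91.7%. Tnxb (0.35) and the first Thbs2 set (0.33) exceeded 87.8% and 85.1%, while the first Sparc set, at 0.11, exceeded 20.8% and the second, at 0.18, exceeded 48.8%. On MOE430B the Thbs2 set had an SD of 0.90, larger than that of 99.6% of the 1991 sets above the limit there. The MOE430B Sparc set, which was not above the limit on every array, had an SD of 0.58.

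**Figure D2:**
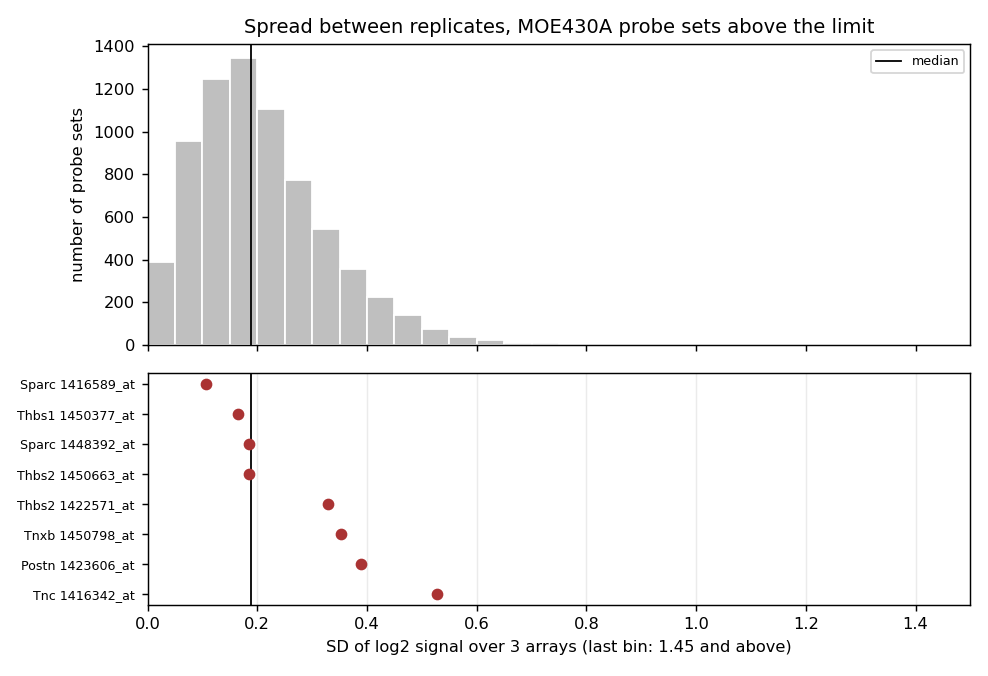
Top, number of MOE430A single-gene probe sets above the limit by the SD of their log2 signal over 3 arrays, with the median (0.19) as a line; bottom, the same SD for the 8 probe sets of the genes described here. Sparc, Thbs1 and the second Thbs2 set lie at or below the median, and Tnc (0.53) lies farthest to the right.

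Whether replicates differed was asked of the 622 genes with signal above the mean limit on both chips, taking the 2 chips of a replicate as its 2 measurements. Thbs2 and Sparc were the only members among them, and 7 of the 622 genes (1.13%) passed. Thbs2 was 1.06 ± 0.21 (moderated SE) higher in replicate 2, its highest, than in replicate 3, its lowest, on the log2 scale. The test over all 3 replicates gave adjusted p = 6.73e-05 (limma moderated F-test). This SE rests on a variance drawn in part from other genes, and from the variance of Thbs2 alone it was 0.47. The difference was 1.61 on MOE430B and 0.51 on MOE430A, so most of it came from the MOE430B probe set, an _x_at set whose probes can match several transcripts. Without probe sets of shared sequence Thbs2 could not be tested, since this is its only set on MOE430B. Its call was kept with median centring of the arrays (limma, adjusted p = 0.0363) and with a pseudocount of 100 (7.1e-05), and lost under the other 7 of 9 alternatives that tested it, with adjusted p up to 0.943. With dim probe sets kept, without replicate 1, without the intensity trend and with an ordinary F-test the difference was again 1.06. Those settings leave the Thbs2 values of replicates 2 and 3 unchanged, so it could not differ. It was 1.07 with quantile normalization. Without replicate 2, the difference was between replicates 1 and 3, at 0.92. In the remaining one, without replicate 3, replicates 2 and 1 were 0.14 apart (limma, adjusted p = 0.877). As Thbs2 was chosen with this difference known, the p-value is no independent support.

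Sparc was 0.64 ± 0.23 (moderated SE, 0.37 from its own variance) higher in replicate 3 than in replicate 2. It did not pass (limma, adjusted p = 0.284, range 0.306 to 0.943 over 9 alternatives). Here too the chips disagreed in size, at 1.06 on MOE430B and 0.22 on MOE430A. Tnc entered only when dim probe sets were kept, and did not pass (limma, adjusted p = 0.943). No replicate was low throughout. Of the 16 probe sets, 8 were lowest in replicate 2, among them both sets of Tnc and of Thbs1, 6 in replicate 3, among them all 3 of Thbs2, and 2 in replicate 1. The same count over all probe sets was not made, so this is not read as a trait of these genes. Median signal of all probe sets on MOE430A was 547 in replicate 2, against 595 and 609.5 in replicates 1 and 3. On MOE430B it was 970, against 861 and 943. Replicate 2 is the one with the strongest hybridisation controls, whose part in these values was not tested.

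**Figure D3:**
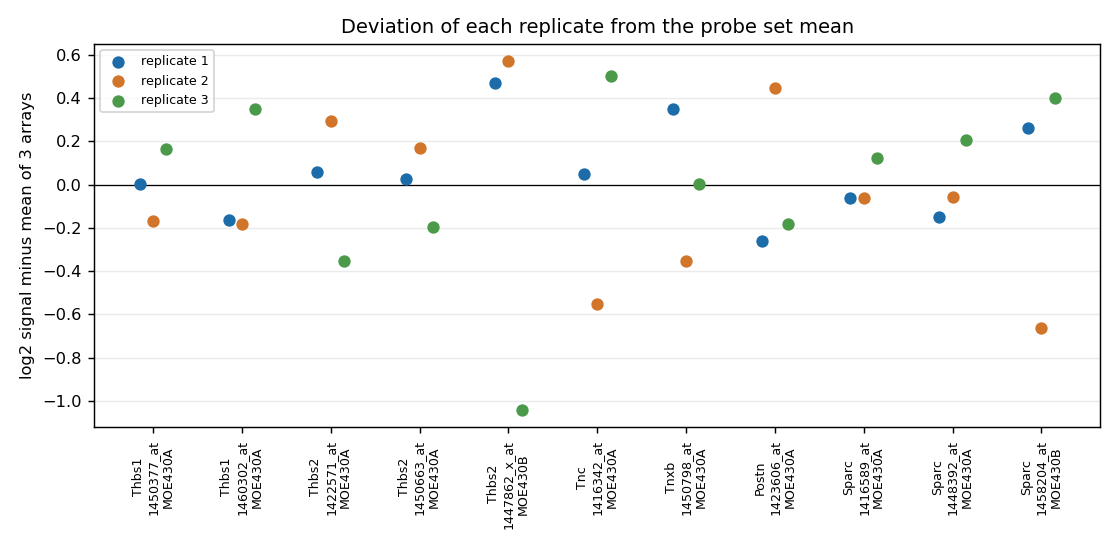
Log2 signal of each replicate minus the mean of the 3 arrays, for the 11 probe sets of Thbs1, Thbs2, Tnc, Tnxb, Postn and Sparc whose mean exceeds the mean limit of their chip. Replicate 3 is the lowest point for every Thbs2 set, most of all on MOE430B, and the highest for every Sparc and Thbs1 set and for Tnc.

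Among other matricellular genes 9 of 21 passed the limit (42.9%), against 36.2% of all genes. Of all genes with 2 or more probe sets, as 14 of these 21 have, 50.4% passed. The list had a median of 0.585 for the lowest array over its limit, against 0.583 over all genes and 1.05 over the 10 members. Of the CCN proteins, secreted adhesion modulators, Ccn1 read 3903 ± 942 (SD, n = 3) and Ccn3 8908 ± 396, by _x_at sets. Both were above the limit on every array. Values of these and the further genes below are of 1 probe set per gene, that with the highest ratio to the limit on its lowest array. Ccn2, Ccn4, Ccn5 and Ccn6 were not, at 434 ± 109, 258 ± 195, 679 ± 150.5 and, on MOE430B, 2075 ± 208. Also above were Tgfbi, the paralogue of periostin, Smoc2, Fstl1, Fbln1, Fbln2, Fbln5 and Ecm1. The other tenascins, Tnn and Tnr, were not, nor were Smoc1, Spock1, Spock2 and Spock3. Without probe sets of shared sequence, taken as names ending in _x_at, _s_at or _a_at, 5 of 19 were above. That is near the share of all genes under this setting, 30.5%. Fbln1 and Fbln2, each above by 1 _a_at set alone, were among the genes lost.

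Receptors and cell surface partners were above the limit for 14 of 20 (70.0%), with a median ratio of 3.97. Of all genes 36.2% were, and of those with 2 or more probe sets, as 19 of these 20 have, 50.4%. Cd36, the scavenger receptor for the type 1 repeats, was not, at 738 ± 86.9, whereas Cd47, which binds the thrombospondin C terminus, read 9837 ± 1713. Lrp1, the endocytic receptor that clears thrombospondin complexes, read 7000.2 ± 1412, and the lipoprotein receptor Vldlr 8055 ± 1341. Cacna2d1, a calcium channel subunit and thrombospondin receptor in neurons, read 1198 ± 69.5, close above the limit. Integrin subunit Itgav, part of receptors for periostin and tenascin-C, read 27535 ± 7948. Probe sets above the limit were 3 of 5 for Cd47 and for Cacna2d1 and 2 of 2 for Lrp1. For Vldlr they were 2 of 6 and for Itgav 1 of 5. Among genes named after their values were seen, Itgb3 read 37916 ± 7421 on MOE430B, where 1 of its 2 probe sets was above. Itga9, whose product binds tenascin-C, was above the limit on 2 of 3 arrays, at 941 ± 166.

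TGF-beta genes and matrix partners were above the limit for 13 of 17 (76.5%), with a median ratio of 11.6. The shares to read this against are again 36.2% of all genes and 50.4% of those with 2 or more probe sets, as 15 of these 17 have. The receptors passed and the ligands did not. Tgfbr1 read 1665 ± 142, Tgfbr2 10102 ± 1059 and the co-receptor Tgfbr3 177063 ± 76599 on MOE430B. Each receptor passed by 1 probe set alone, of 3 for Tgfbr1 and for Tgfbr2 and of 2 for Tgfbr3. Of the ligands, Tgfb1 read 899 ± 87.6, above the limit on 2 of 3 arrays and at 0.977 of it on the lowest, Tgfb2 369.9 ± 88.9 and Tgfb3 108 ± 68.8. Ltbp1, which tethers latent TGF-beta to the matrix, was the other gene below. The remaining partners, Bmp1, Lox, Fn1, Col1a1, Col1a2, Col3a1, Col5a1, Col6a1, Dcn and Mmp2, were above. No set test was run on any of these lists.

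**Figure D4:**
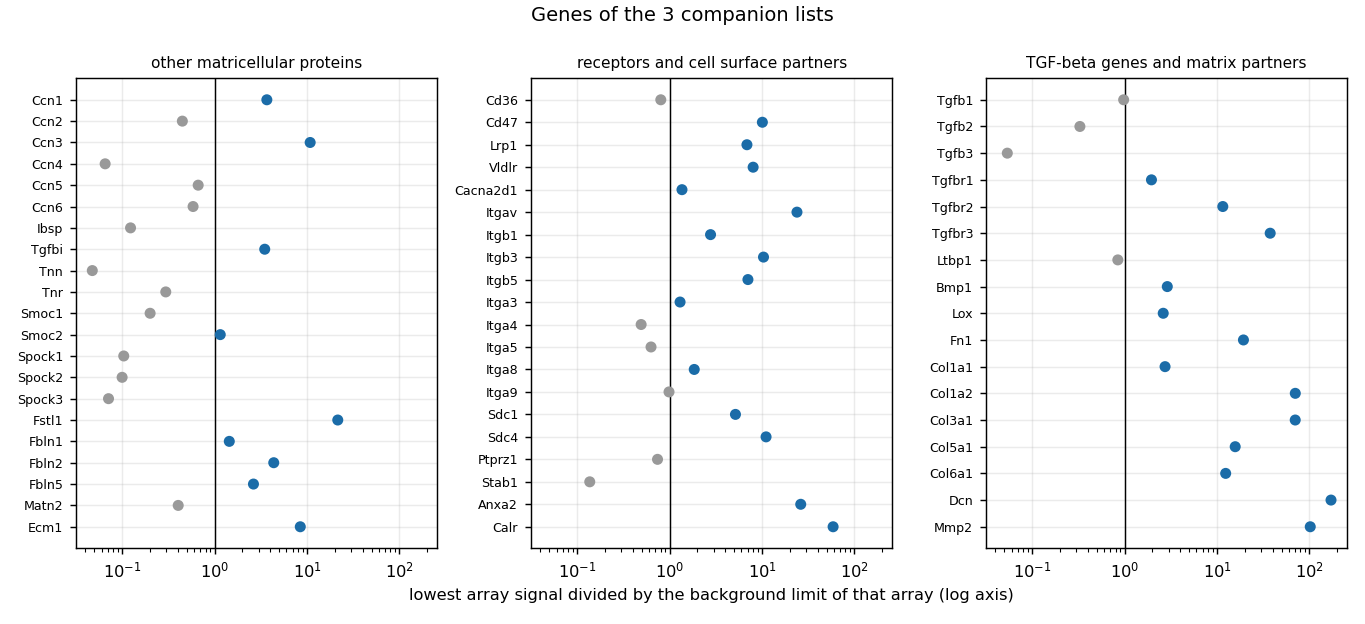
Signal on the lowest of 3 arrays divided by the background limit of that array (log axis), for the best probe set of each gene in the 3 lists; blue points are above the limit on every array and grey points are not. Points right of the line at 1 number 9 of 21, 14 of 20 and 13 of 17.

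As a check of the cells, all 6 fibroblast and fibro-adipogenic markers were above the limit, Pdgfra at 12733 ± 791 and Twist2 at 15241 ± 1004. Col1a2, Col3a1 and Dcn among them were already counted with the matrix partners. The shares to set beside all marker counts are 36.2% of all genes, 22.1% of those with 1 probe set and 50.4% of those with more. None of 4 tendon markers (Scx, Mkx, Tnmd and Fmod), 6 myogenic markers or 4 chondrocyte markers was above the limit on all 3 arrays. Myod1 (914 ± 267), Myog (1177 ± 393), Sox9 (702 ± 204) and Acan (886 ± 93.5) exceeded it on 2 of 3 arrays. Scx, Fmod, Acta1 and Ckm exceeded it on 1. For endothelial cells 1 of 4 passed (Kdr), for smooth muscle and pericytes 1 of 4 (Rgs5), for Schwann cells and glia 1 of 3 (Sox10), and for blood and macrophages 2 of 5. Those 2 were Csf1r, at 2925 ± 555.0, and Pf4, at 10919 ± 985. Tyrobp, at 1018 ± 313, and Cd68, at 792 ± 68.7, exceeded the limit on 2 of 3 arrays. The leukocyte antigen Ptprc, at 628 ± 219.7, exceeded it on 1. Platelets store thrombospondin 1, and the part of other cell types in the signals of these genes was not tested.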

How the data were processed

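Total RNA of cultured Sca1-enriched myospheres was hybridised to 3 arrays of each of 2 chips. The deposited values are MAS5 signal intensity, per the submitters' processing notes and with no version in the sources used here; scaling by the authors set a trimmed mean (2% off each end) near 1500. Other settings in the instrument files (chip lot, fluidics module, scan day) were read as deposited, per the file headers. Only probe sets annotated to exactly 1 gene were used, and symbols were updated by Entrez number through RefSeq (20364 of 20393 single-gene sets on MOE430A, 14499 of 14674 on MOE430B). The limit rests on 151 reference sets on MOE430A and 44 on MOE430B. The replicate test was limma 3.58.1 under R 4.3.3 (log2 signal, chip as covariate, intensity trend, Benjamini-Hochberg over all genes tested). It was tested on simulated data with independent noise for each gene and array, so effects shared over a whole array were not covered. No pseudocount was used except in the alternative of 100. Python 3.11.15, numpy 2.4.6, pandas 2.3.3 and matplotlib 3.10.9 did the rest. The genes, lists and tests were chosen with earlier results of these data known. All probe sets of the 10 genes are described; of each companion list the first 6 measured genes are named with values. Alternatives changed the limit, the normalization, the probe sets, the filter, the variance model and the replicates. The gene Spp1 of the matricellular list was not analysed here. The authors' value for a probe set has no detection call used here, and 3 arrays limit precision.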

Additional observations from a re-analysis of the deposited data

Results flagged for a closer look

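A signal appeared in a MOE430A probe set that no comparison above uses, 1421811_at, which is annotated to Thbs1 and to another gene. It read 2146, 2094 and 2383 in replicates 1 to 3, or 2208 ± 154 (SD, n = 3), at least 2.62 times the background limit on every array. The sets annotated to Thbs1 alone read 937.8 ± 107 and 872 ± 191. Which of the 2 genes gave the signal cannot be told from these files.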

How the results depend on the processing

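The count of 6 members above the limit stayed within 1.5 times under 9 of 10 alternatives and was 3 with the 99th percentile as limit (27.0% of all genes), without Thbs1, Tnxb and Postn. Thbs2, Tnc and Sparc were above and Thbs3, Comp and Sparcl1 below in all 10. Leaving out a replicate gave 6 to 7 members. Other matricellular genes above fell to 5 without probe sets of shared sequence, where 19 were measured, and the other lists stayed within 1.5 times. The number of genes that passed between replicates was 7 in limma and with a pseudocount of 100, and 4 with median centring (39 at an unadjusted p under 0.05). It was 0 with quantile normalization (limma, 39 unadjusted), without the filter on dim sets (92), without sets of shared sequence (20), without the intensity trend (56) and with an ordinary F-test per gene (25). Leaving out a replicate gave 0 to 5, 0 without replicates 1 (44 unadjusted) and 2 (34) and 5 without replicate 3 (50). The cause was not tested. The chip comparison found 99 of 100 shared probe sets higher on MOE430B with the replicate block as without it, and 97 with each array centred on its median, where the median difference was 1.19 in place of 1.86 (log2).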
